A study of Mus musculus with 16 samples.

Results

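The genes described here are 9 transcription regulators of the myeloid and dendritic lineages, Id1, Id2, Id3, Spi1, Batf, Batf3, Zeb2, Runx3 and Tcf4. They were followed in mouse bone marrow-derived dendritic cells that had met the bacterium Lactobacillus acidophilus NCFM. Members were the genes so named in the probe annotation. All 9 were on the array, with 21 probe sets among them, out of 18193 genes measured. Id2, Zeb2, Runx3 and Tcf4 had several probe sets, and each gene is given by the one that was brightest on average unless said otherwise.

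Each of the 16 single-channel arrays measured the RNA of 1 culture. NCFM cultures, dendritic cells with the bacterium added at 10 µg/ml, were taken at 4 h, 10 h and 18 h with 3 arrays each. Control cultures without the bacterium had 3 arrays at 4 h and 2 arrays each at 10 h and 18 h. All cells came from wild type C57BL/6 mice, were grown from bone marrow with GM-CSF, harvested as non-adherent cells and kept in GM-CSF during the treatment. The labels do not say whether arrays of a group came from separate mice or cultures, so p-values measure the spread between these arrays, which may be technical. In such mixed cultures fewer cells of a type and less RNA per cell cannot be told apart.

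Id1, Id2 and Id3 are inhibitors of DNA binding. They have a helix-loop-helix but no DNA-binding region, and they pair with E proteins such as Tcf4 (E2-2), Tcf3 and Tcf12 and keep them off the DNA. In dendritic cell development Id2 is known for its part in conventional dendritic cells, Tcf4 for plasmacytoid dendritic cells, Batf3 for cross-presenting type 1 conventional cells, Spi1 (PU.1) for the whole myeloid and dendritic branch, Zeb2 for the plasmacytoid and monocytic branches and Runx3 for the control of TGF beta responses. Batf, a small AP-1 factor like Batf3, pairs with Jun proteins and works with Irf4 and Irf8 on DNA.

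Promoters are shown for 2 pairs of related genes whose transcripts did not behave alike: Batf beside Batf3, and Id2 beside Id3. The sequences are from RefSeq on GRCm38.p6 and run 5′ to 3′ over 250 bases before and 50 bases after the transcript start. The table held promoters for 6 of the 9 members: Id2, Id3, Batf, Batf3, Zeb2 and Runx3. Capitals mark matches on either strand to AP-1 (TGANTCA), the interferon-gamma activated site GAS (TTCNNNGAA), an IRF element (GAAANNGAA), a BMP response element (GGCGCC), PU.1 (GAGGAAG) or the kB motif.
Batf promoter, chr12:85686470-85686769, plus strand: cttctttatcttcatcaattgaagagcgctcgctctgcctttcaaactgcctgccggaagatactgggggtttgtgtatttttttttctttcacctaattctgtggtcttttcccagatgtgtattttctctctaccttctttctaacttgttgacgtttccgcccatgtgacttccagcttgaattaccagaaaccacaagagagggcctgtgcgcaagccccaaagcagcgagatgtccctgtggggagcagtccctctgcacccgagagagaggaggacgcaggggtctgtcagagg
Batf3 promoter, chr1:191098164-191098463, plus strand: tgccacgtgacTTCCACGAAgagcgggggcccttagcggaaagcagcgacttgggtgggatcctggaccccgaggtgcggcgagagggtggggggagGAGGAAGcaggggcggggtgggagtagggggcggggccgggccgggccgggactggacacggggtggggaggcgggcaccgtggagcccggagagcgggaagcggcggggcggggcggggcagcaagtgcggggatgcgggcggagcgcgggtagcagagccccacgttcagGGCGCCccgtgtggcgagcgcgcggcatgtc
Id2 promoter, chr12:25096043-25096342, minus strand: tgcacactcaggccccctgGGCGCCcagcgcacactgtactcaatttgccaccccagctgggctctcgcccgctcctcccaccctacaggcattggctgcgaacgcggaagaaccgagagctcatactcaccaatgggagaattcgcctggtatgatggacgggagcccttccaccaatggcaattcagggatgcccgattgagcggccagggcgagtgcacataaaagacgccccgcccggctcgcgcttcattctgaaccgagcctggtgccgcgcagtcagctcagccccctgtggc
Id3 promoter, chr4:136143572-136143871, plus strand: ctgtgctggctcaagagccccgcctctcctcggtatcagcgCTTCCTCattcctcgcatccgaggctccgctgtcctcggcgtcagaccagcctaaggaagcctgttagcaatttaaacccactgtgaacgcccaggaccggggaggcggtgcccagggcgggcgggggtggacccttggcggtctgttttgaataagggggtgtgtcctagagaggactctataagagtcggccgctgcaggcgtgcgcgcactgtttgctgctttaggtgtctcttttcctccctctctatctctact
Batf3 held a GAS match at -239, a PU.1 match at -153 and a BMP element match at 20, counted from the transcript start, and none of these overlap. Id2 held a BMP element match at -231, and Id3 held a PU.1 match at -209 on the minus strand. No match to these 6 motifs lay in the Batf window. E-boxes (CANNTG), the sites of E proteins, were left in lower case: the windows of Batf, Batf3, Id2 and Id3 held 3, 2, 1 and 0 matches. Of all 32851 promoters of the same length in the table, 72.3% held an E-box, 13.6% the PU.1 letters, 11.9% the BMP element, 8.30% GAS, 8.56% the IRF element, 8.46% kB and 7.81% AP-1. These are matches of letters and not measured binding.

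At each time the NCFM and control arrays were compared with limma on log2 intensity, with the spread estimated over all 16 arrays and p-values adjusted by Benjamini-Hochberg over the 18193 genes. A gene is called below when its adjusted p lay under 0.05, and changes are log2 of NCFM over control with their standard error. At 4 h, 18.3% of all genes were called, 5.27% higher and 13.1% lower. Of the 9 lineage regulators, 3 were higher with NCFM (Id2, Batf, Tcf4) and 1 was lower (Id3). At 10 h the background was 24.7%, with 8.21% higher and 16.5% lower, and the same count of regulators was called, 3 higher (Id2, Batf, Tcf4) and 1 lower (Id3). At 18 h the background was 23.7%, with 7.4% higher and 16.3% lower, and 3 regulators were higher (Id2, Batf, Runx3) and 0 lower. The median change of the 9 was -0.09 at 4 h, 0.23 at 10 h and 0.45 at 18 h, beside -0.01, 0.01 and 0.00 over all genes. Zeb2 was also called at 4 h when the array number was fitted as a block, with an adjusted p of 0.0315 from limma. That fit called 26.8% of all genes.

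**Figure D1:**
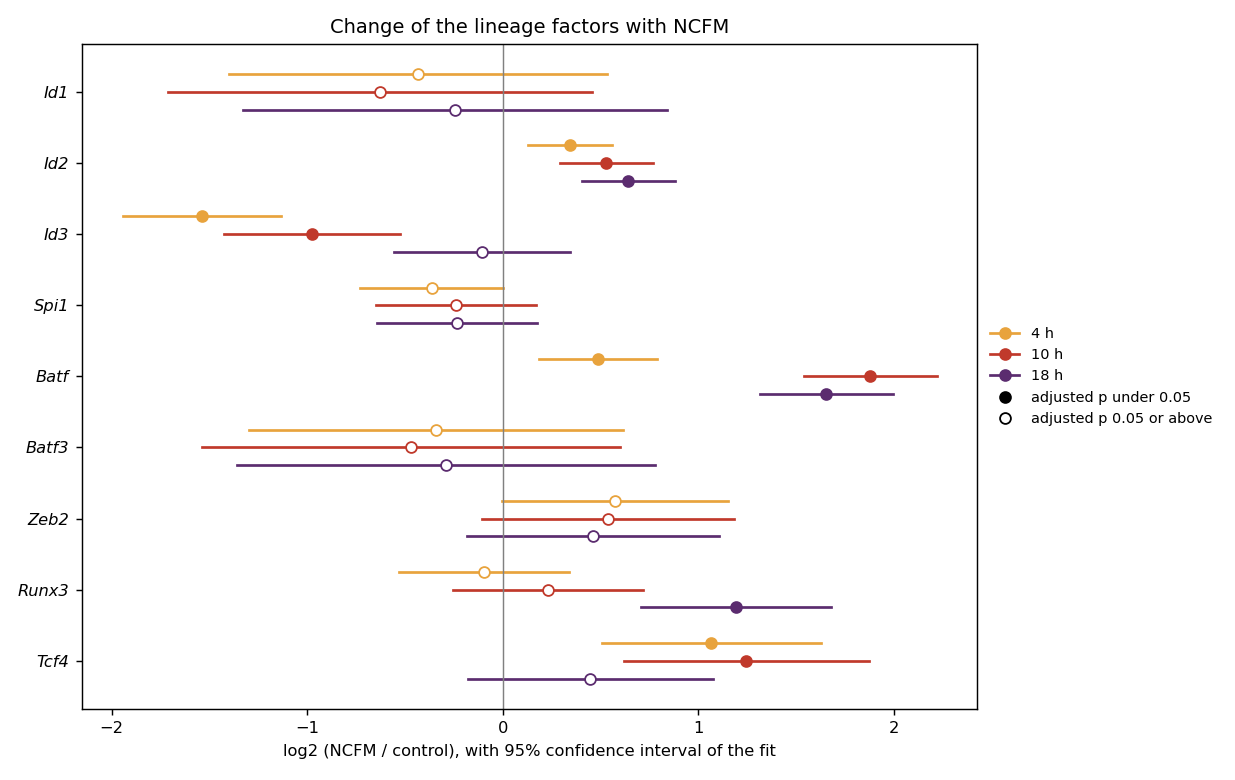
Log2 change of each regulator, NCFM over control, at 4 h, 10 h and 18 h (3 NCFM arrays at each time against 3, 2 and 2 control arrays). Points are limma's estimates, lines their 95% confidence intervals, and filled points have an adjusted p under 0.05; Batf reached 1.88 at 10 h, Id3 -1.54 at 4 h, and Id1 and Batf3 have the widest intervals of the 9.

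Arrays were numbered 1 to 3 within a group, or 1 and 2 in control at 10 h and 18 h. Some regulators differed in 1 direction between the array numbered 1 and the rest of its group in all 6 groups. In a group of 2 arrays it cannot be told which of them stands apart. Among the regulators, Id1 was higher on the array numbered 1 in 6 of 6 groups, by 0.86 on the log2 scale on average, and Batf3 in 6 of 6 groups, by 0.82. Id3 and Tcf4 were lower there in 6 of 6 groups, by 0.38 and 0.49. Values within array numbers are therefore given beside the pooled ones, as a description. How many of all genes keep 1 direction in every same-number pair was not counted, and the pairs may not be independent. All 7 dendritic cell markers (Itgax, Flt3, Zbtb46, H2-Ab1, H2-Aa, Cd74, Ciita) and all 8 macrophage markers were brighter than the median probe set on at least 1 array. Of markers of other cells, 3 of 7 for T cells (Cd3g, Cd8b1, Cd5), 3 of 6 for B cells (Cd79a, Cd79b, Ebf1), 3 of 4 for NK cells (Ncr1, Eomes, Gzma), 4 of 6 for mast cells and basophils and 2 of 4 for erythroid cells were at or below the array median on all 16. For neutrophils this was so of 0 of 6 markers. The summed intensity of the 7 dendritic cell markers was 49938 to 54219 on NCFM 18 h arrays, against 59657 to 61297 on control 18 h arrays. Of the 7, 3 were called lower (Itgax, Cd74, Ciita), where 16.3% of all genes were called lower. Each of these calls ended in some fit without 1 array. The summed intensity of 6 neutrophil markers was 1866 to 5434 on NCFM 18 h arrays, against 6054 to 7826 on control 18 h arrays. For 7 cell cycle genes it was 2577 to 2729 against 3368 to 13503. For the 8 macrophage markers it was 43952 to 60569 against 59145 to 77041. At 18 h 1 neutrophil, 0 cell cycle and 2 macrophage genes were called lower, beside the same 16.3% of all genes. The neutrophil call ended in some fit without 1 array. With the array number as a block 2, 5 and 4 were lower, where 30.5% of all genes were called in either direction. The part of these genes in the results was not tested.

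**Figure D2:**
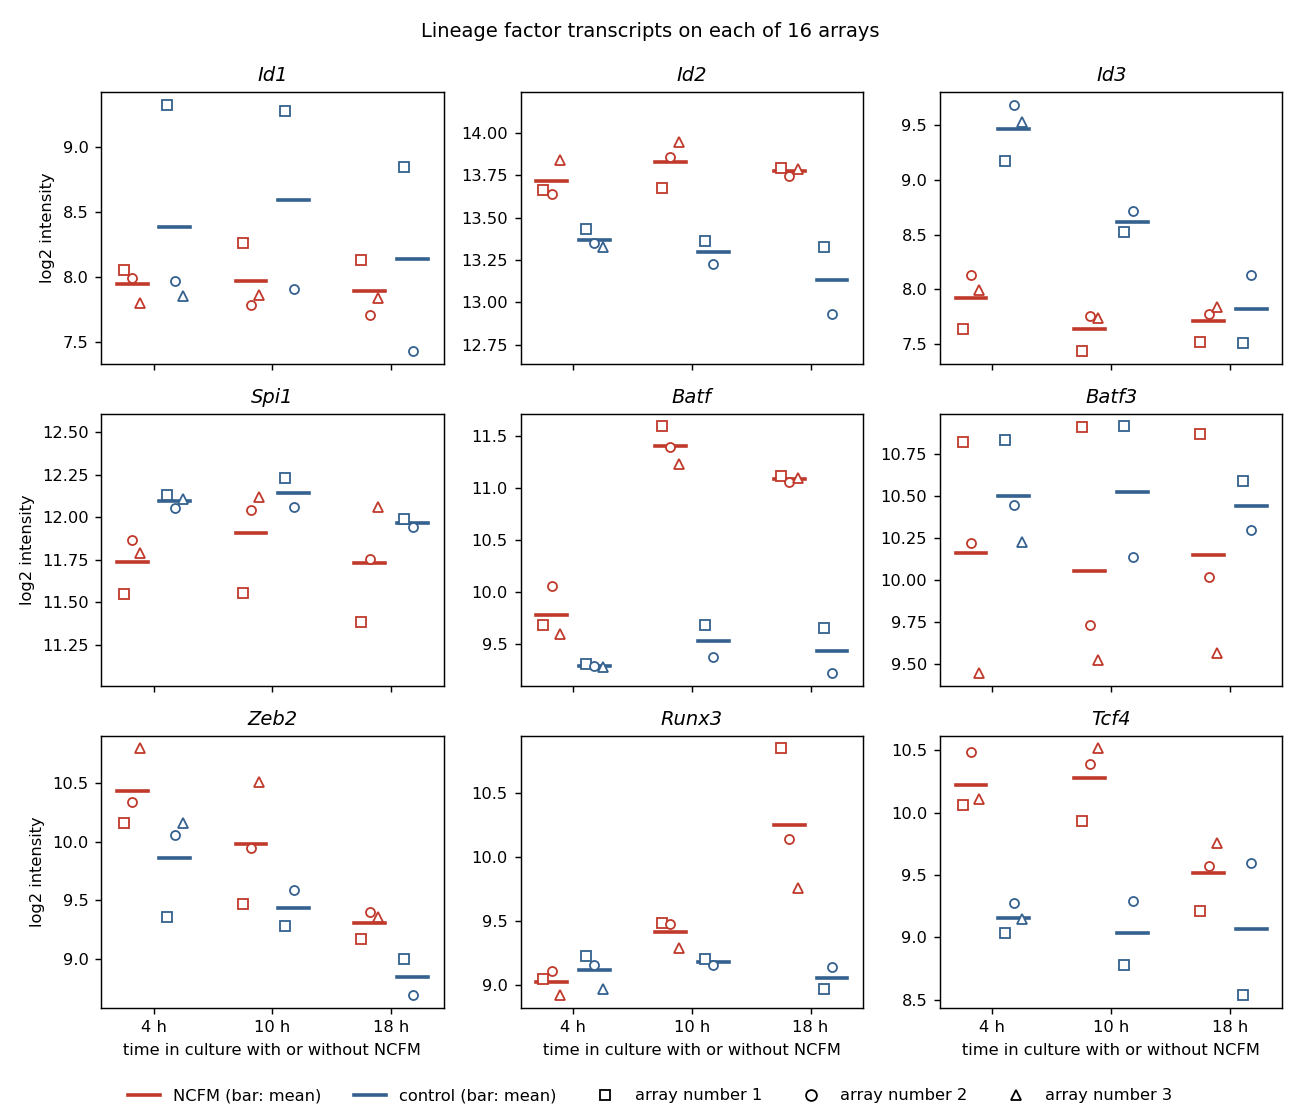
Log2 intensity of the 9 regulators on each of the 16 arrays, NCFM in red to the left of control in blue at each time, with a bar at the group mean and a symbol for the array number. The Batf points of NCFM at 10 h and 18 h lie above every control point, the Id3 points of control fall towards those of NCFM with time, and the Id1 squares of control (array number 1) lie far above the other control points.

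Batf rose with NCFM at every time and had the largest rise of the 9 at 10 h and 18 h. Its intensity was 823, 1065 and 772 on the NCFM 4 h arrays, 3091, 2704 and 2413 on the NCFM 10 h arrays and 2214, 2133 and 2199 on the NCFM 18 h arrays, in the order of the array numbers. Control arrays gave 633, 627 and 619 at 4 h, 823 and 665 at 10 h and 807 and 595 at 18 h. Every NCFM array lay above every control array of its time, and the control values at 4 h lay within the range of those at 18 h and below those at 10 h. The change was 0.49 ± 0.14 at 4 h (adjusted p = 0.0295 from limma), 1.88 ± 0.16 at 10 h (adjusted p = 9.71e-06, 3.68-fold) and 1.65 ± 0.16 at 18 h (adjusted p = 2.42e-05, 3.15-fold). At 4 h the call was lost when NCFM 4 h replicate 2 was left out (0.35, adjusted p = 0.11 from limma) and without any 1 control 4 h array (adjusted p 0.0624 to 0.0841), while at 10 h and 18 h it was kept in every such fit.

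The NCFM effect on Batf was larger at the later times. It exceeded that at 4 h by 1.39 ± 0.21 at 10 h (adjusted p = 0.0189 from limma, where 0.506% of all genes were called) and by 1.17 ± 0.21 at 18 h (adjusted p = 0.0111, where 3.4% were called), a call that ended under spike-in centring (0.98, adjusted p = 0.0531). Between 10 h and 18 h the effect differed by -0.22 ± 0.22, with a 95% interval of -0.70 to 0.25 (adjusted p = 0.928). The call for 10 h against 4 h ended without NCFM 10 h replicate 2, control 4 h replicate 2, control 4 h replicate 3 or control 10 h replicate 1 (adjusted p 0.0529 to 0.057). Among the NCFM arrays alone, Batf was higher at 10 h than at 4 h by 1.63 ± 0.14 (adjusted p = 0.000159, where 6.28% of all genes were called) and at 18 h than at 4 h by 1.31 ± 0.14 (adjusted p = 8.96e-05, where 16.2% were called). The 10 h and 18 h NCFM arrays did not overlap either, with 18 h lower by 0.32 ± 0.14 on the log2 scale, which did not pass (adjusted p = 0.306).

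Batf3, the related factor of type 1 conventional dendritic cells, was not called at any time. The NCFM arrays read 1807, 1195 and 698 at 4 h, 1927, 851 and 739 at 10 h and 1871, 1036 and 760 at 18 h. Control arrays read 1823, 1397 and 1201 at 4 h, 1929 and 1126 at 10 h and 1541 and 1257 at 18 h. The groups overlapped at every time because the arrays numbered 1 were high in both. The pooled changes were -0.34 ± 0.44, -0.47 ± 0.49 and -0.29 ± 0.49 at 4 h, 10 h and 18 h (adjusted p 0.648, 0.52 and 0.715 from limma), with 95% intervals that reach from -1.54 to 0.78. Within array number 1 the NCFM minus control difference was -0.01, 0.00 and 0.28 at the 3 times. Within number 2 it was -0.23, -0.40 and -0.28, and within number 3, at 4 h, it was -0.78. Batf3 was thus lower with NCFM in 6 of 7 same-number pairs, with the number 1 pairs nearest to 0 or above it. The number 1 pairs at 4 h and 10 h, counted as lower, were all but equal (1807 against 1823 and 1927 against 1929).

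The partners of these proteins were Jun factors, Irf factors and the third family member, 6 genes in all. At 4 h 2 were higher and 0 lower, at 10 h 2 higher and 1 lower, and at 18 h 2 higher and 0 lower, against the shares over all genes given above. Batf2 changed by 2.10 ± 0.20 at 4 h, 1.82 ± 0.23 at 10 h and 1.40 ± 0.23 at 18 h (adjusted p 3.32e-05, 0.000144 and 0.000894 from limma). Junb, which pairs with BATF, changed by 1.06 ± 0.18, 0.83 ± 0.20 and 1.09 ± 0.20 (adjusted p 0.00178, 0.0104 and 0.00221), and leaving out control 10 h replicate 1 ended its 10 h call (adjusted p = 0.104). Jund fell by 0.91 ± 0.19 on the log2 scale at 10 h (adjusted p = 0.00425), and leaving out the same control array ended that call too (adjusted p = 0.0584). Irf8, the interferon regulatory factor of type 1 conventional and plasmacytoid cells, had changes of 0.77 ± 0.37, 0.78 ± 0.41 and 0.34 ± 0.41, and Irf4 of 0.09 ± 0.54, -0.03 ± 0.60 and -0.37 ± 0.60, none of which passed (adjusted p 0.177 to 0.974).

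Id2 rose with NCFM at all 3 times, by less than Batf. NCFM arrays read 12959, 12755 and 14634 at 4 h, 13096, 14805 and 15748 at 10 h and 14157, 13729 and 14135 at 18 h. The control arrays read 11070, 10422 and 10286 at 4 h, 10544 and 9570 at 10 h and 10283 and 7824 at 18 h. No control array reached the lowest NCFM array at any time. The change was 0.34 ± 0.10 at 4 h (adjusted p = 0.0302 from limma), 0.53 ± 0.11 at 10 h (adjusted p = 0.00415) and 0.64 ± 0.11 at 18 h (adjusted p = 0.00129, 1.56-fold), and all 7 same-number pairs were higher with NCFM, by 0.23 to 0.81. On average this probe set was brighter than 99.6% of those on the array. A dimmer probe set of Id2 gave 0.73, 0.83 and 1.13 at the 3 times (adjusted p 0.00836, 0.0055 and 0.000801 over all probe sets), and the dimmest gave 0.14, 0.19 and 0.94, of which the last was called (adjusted p = 0.0364).

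At 4 h the Id2 call was not stable. It was lost without NCFM 4 h replicate 3 (0.28, adjusted p = 0.111 from limma), without control 4 h replicate 2 (0.33, adjusted p = 0.0907) or without control 4 h replicate 3 (0.32, adjusted p = 0.0975). It was also lost when the Id2 probe sets were averaged (0.40, adjusted p = 0.0774) and with an intensity trend and robust variance (0.34, adjusted p = 0.0957). The fit of arrays 1 and 2 only, with the array number as a block, ended it too (0.26, adjusted p = 0.212). The effect at 18 h minus that at 4 h was 0.30 ± 0.15 (adjusted p = 0.363), so a growth of the effect with time was not shown. Scaling the arrays to their spike-in probe sets lowered the 10 h change to 0.28 (adjusted p = 0.0646), with the median of all genes moved to -0.24.

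Id3 moved the other way, and the control cultures moved with time. NCFM arrays read 199, 280 and 255 at 4 h, 173, 216 and 214 at 10 h and 184, 219 and 229 at 18 h. Control arrays read 575, 823 and 738 at 4 h, 368 and 420 at 10 h and 182 and 280 at 18 h. The groups were apart at 4 h and at 10 h and overlapped at 18 h, when the control arrays had come down to the NCFM level. With NCFM, Id3 fell by 1.54 ± 0.19 on the log2 scale at 4 h (adjusted p = 0.000163 from limma) and by 0.98 ± 0.21 at 10 h (adjusted p = 0.00479), which is 2.91-fold and 1.97-fold lower. At 18 h the difference was -0.11 ± 0.21, with a 95% interval of -0.56 to 0.35 (adjusted p = 0.757). Its fall at 4 h ranked 33 by size among the genes that were lower with NCFM.

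Within array numbers the Id3 difference was nearly the same on every pair at 4 h, and the calls at 4 h and 10 h held in every alternative fit. The 3 same-number pairs at 4 h gave -1.53, -1.56 and -1.53. The effect at 18 h minus that at 4 h was 1.43 ± 0.28 (adjusted p = 0.0164 from limma, where 3.4% of all genes were called), a call that ended when control 18 h replicate 1 was left out (1.12, adjusted p = 0.0611). The effect at 10 h minus that at 4 h was 0.56 ± 0.28 (adjusted p = 0.519). With the array number as a block it was 0.52 and passed (adjusted p = 0.0482, where 2.51% of all genes were called). From 10 h to 18 h the effect differed by 0.87 ± 0.29 (adjusted p = 0.457), which also passed with the block (adjusted p = 0.0189). At 18 h minus 10 h, 0.0055% of all genes were called without the block and 0.451% with it.

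In control cultures alone, no gene of the 18193 was called between times, so that the share called was 0% for 10 h against 4 h, 0% for 18 h against 10 h and 0% for 18 h against 4 h. At an unadjusted p under 0.05 there were 552, 652 and 557 genes, or 3.03%, 3.58% and 3.06%, and with the block limma called 0, 2 and 1. Id3 had the lowest p of all genes in control 18 h against 4 h, with a change of -1.64 ± 0.21 (adjusted p = 0.0753 from limma, and 4.6e-05 with the block). For control 10 h against 4 h it was -0.84 ± 0.21 (adjusted p = 1, and 0.0507 with the block), and for 18 h against 10 h -0.80 ± 0.23 (adjusted p = 1, and 0.0449 with the block). In NCFM cultures Id3 differed by -0.28 ± 0.19 between 10 h and 4 h (adjusted p = 0.512, and 0.041 with the block, which called 12.6% of all genes).

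Id1 was not called at any time, and its pooled changes came from 1 pair of arrays at each time. NCFM arrays read 265, 254 and 223 at 4 h, 306, 220 and 232 at 10 h and 280, 209 and 229 at 18 h. Control arrays read 641, 250 and 231 at 4 h, 621 and 240 at 10 h and 460 and 172 at 18 h, so that the control array numbered 1 was the brightest of its time. The other control arrays lay within the NCFM range at 4 h and 10 h, and control 18 h replicate 2 lay below it. The pooled changes were -0.43 ± 0.44, -0.63 ± 0.50 and -0.24 ± 0.50 (adjusted p 0.555, 0.385 and 0.767 from limma). Within number 1 the difference was -1.27, -1.02 and -0.72 at 4 h, 10 h and 18 h. Within number 2 it was 0.02, -0.13 and 0.28, and within number 3, at 4 h, -0.05.

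**Figure D3:**
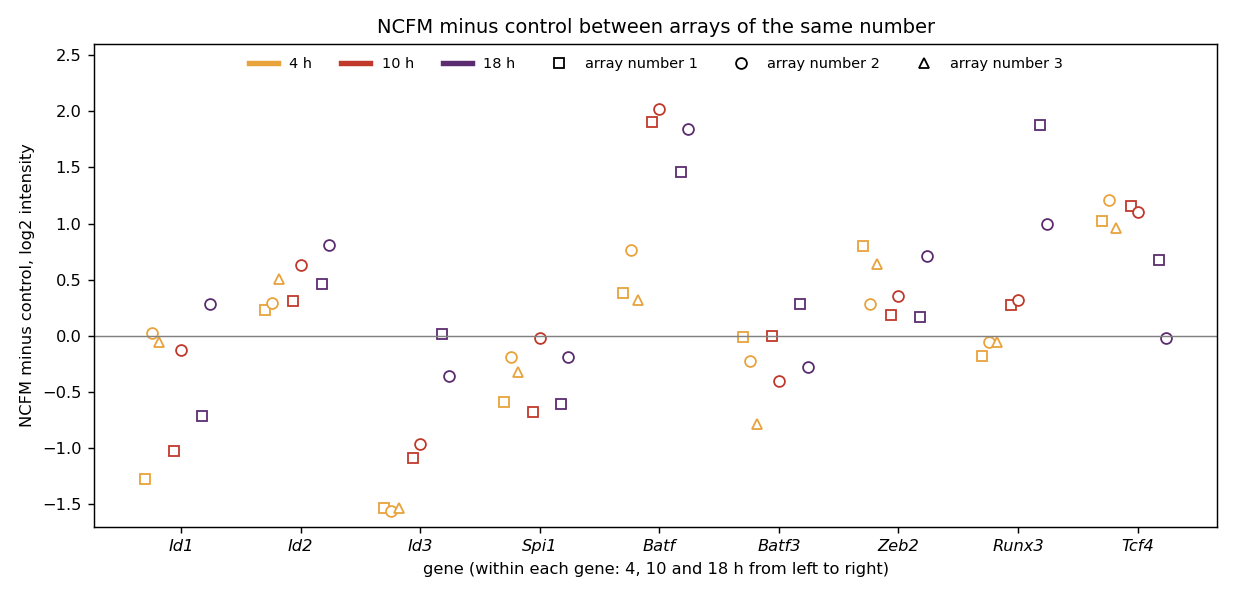
NCFM minus control in log2 intensity between arrays of the same number and time, for each regulator (7 pairs: 3 at 4 h, 2 at 10 h, 2 at 18 h). Id2, Batf and Zeb2 lie above 0 in 7 of 7 pairs and Spi1 below 0 in 7 of 7, while the Id1 pairs of number 1 lie at -1.27 to -0.72 and those of the other numbers near 0. The share of all genes that keep 1 direction in every pair was not counted.

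Tcf4, the E protein of plasmacytoid dendritic cells, rose with NCFM at 4 h and 10 h. The NCFM arrays read 1066, 1435 and 1103 at 4 h, 978, 1343 and 1462 at 10 h and 592, 762 and 865 at 18 h. Control arrays read 523, 620 and 567 at 4 h, 439 and 625 at 10 h and 371 and 773 at 18 h. All NCFM arrays were above all control arrays at 4 h and 10 h, and at 18 h control replicate 2 lay between NCFM arrays. The change was 1.07 ± 0.26 at 4 h (adjusted p = 0.0128 from limma, 2.09-fold), 1.25 ± 0.29 at 10 h (adjusted p = 0.00749, 2.37-fold) and 0.45 ± 0.29 at 18 h (adjusted p = 0.294). At 4 h the call was lost by a little without NCFM 4 h replicate 2 (0.93, adjusted p = 0.0529), and at 10 h without control 10 h replicate 1 (0.99, adjusted p = 0.104).

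The 18 h value of Tcf4 rested on the control arrays. Without control 18 h replicate 2 it was 0.98 (adjusted p = 0.0334 from limma), and without control 18 h replicate 1 it was -0.08 (adjusted p = 0.866). Within array numbers the difference at 18 h was 0.67 for number 1 and -0.02 for number 2. Of the 6 Tcf4 probe sets, 6 were called at 4 h, with changes of 0.42 to 1.28, 5 were called at 10 h and 2 at 18 h (1.06 and 1.08), all higher with NCFM. The effect at 18 h minus that at 10 h was -0.80 ± 0.41, with a 95% interval of -1.68 to 0.09 (adjusted p = 0.706). Among NCFM arrays alone Tcf4 was lower at 18 h than at 10 h, by -0.77 ± 0.26 (adjusted p = 0.159 from limma, and 0.0126 with the block). Of all genes 2.79% were called there without the block and 7.23% with it. Of its other probe sets, 3 passed without the block, with -0.77, -0.74 and -0.67 (adjusted p 0.00901, 0.024 and 0.0498 over all probe sets). NCFM 18 h against 4 h gave -0.70 ± 0.26 (adjusted p = 0.087, and 0.0057 with the block). Here 16.2% of all genes were called without the block and 23.5% with it.

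A list of 6 helix-loop-helix genes held the E proteins Tcf3, Tcf12 and Tcf4, the related factors Tal1 and Lyl1, and Id4, itself an Id protein. Of these 6, 1 was higher (Tcf4 itself) and 1 lower at 4 h, 1 higher (again Tcf4) and 2 lower at 10 h, and 0 higher and 2 lower at 18 h. Of all genes 18.3%, 24.7% and 23.7% were called at these times. With the block the counts were 1 and 2, 1 and 3, and 0 and 4, where 26.8%, 31.1% and 30.5% of all genes were called. Lyl1, a basic helix-loop-helix factor of early blood cells, fell, with changes of -1.48 ± 0.18 at 4 h, -1.21 ± 0.20 at 10 h and -1.24 ± 0.20 at 18 h on the log2 scale (adjusted p 0.000176, 0.00112 and 0.000946 from limma). Tcf3, the E2A gene, had changes of -0.30 ± 0.17, -0.63 ± 0.19 and -0.71 ± 0.19 (adjusted p 0.259, 0.0322 and 0.0184). Its 10 h call ended under quantile normalization (adjusted p = 0.0836) or without control 10 h replicate 1 (-0.30, adjusted p = 0.402), NCFM 10 h replicate 2 or NCFM 10 h replicate 3, and its 18 h call without control 18 h replicate 2 (adjusted p = 0.153) or NCFM 18 h replicate 2. Tcf12 had -0.46 ± 0.22, -0.51 ± 0.24 and -0.47 ± 0.24, none of which passed (adjusted p 0.149 to 0.189).

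**Figure D4:**
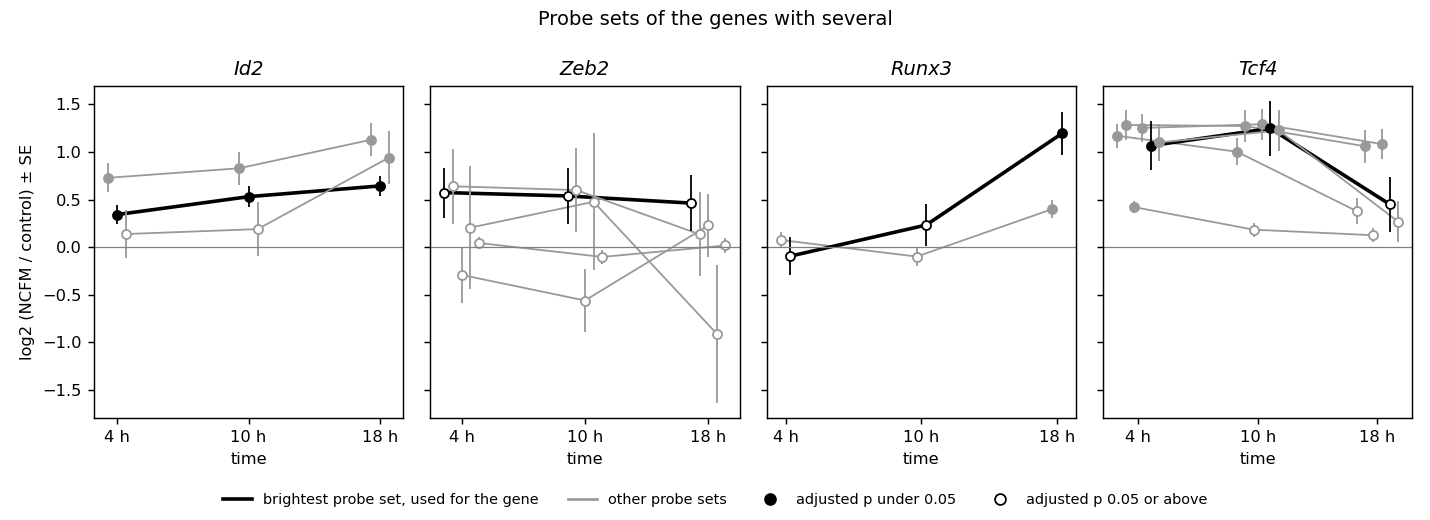
Log2 change with standard error, NCFM over control at 3 times, for every probe set of the 4 regulators that have several. Black lines are the brightest probe set of each gene, grey lines the others, and filled points have an adjusted p under 0.05; the 6 Tcf4 probe sets lie above 0 throughout, while the 5 Zeb2 probe sets lie on both sides of 0 and none is filled in this fit without a block.

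Runx3 rose with NCFM at 18 h. The NCFM arrays read 529, 551 and 484 at 4 h, 714, 710 and 624 at 10 h and 1840, 1125 and 867 at 18 h. Control arrays read 598, 571 and 502 at 4 h, 590 and 570 at 10 h and 501 and 563 at 18 h. The groups overlapped at 4 h, were narrowly apart at 10 h and clearly apart at 18 h, when the NCFM array numbered 1 was the brightest. The change was -0.09 ± 0.20 at 4 h (adjusted p = 0.796 from limma), 0.23 ± 0.22 at 10 h (adjusted p = 0.478) and 1.19 ± 0.22 at 18 h (adjusted p = 0.00223, 2.29-fold). A dimmer probe set gave 0.08, -0.10 and 0.40, of which the last was called (adjusted p = 0.0114 over all probe sets).

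The NCFM effect on Runx3 was larger at 18 h than at 4 h, by 1.29 ± 0.30 (adjusted p = 0.0375 from limma, where 3.4% of all genes were called). With the array number as a block the adjusted p was 0.00599, where 9.15% were called. Spike-in centring ended the call made without the block (1.10, adjusted p = 0.0731). It was near the threshold, and was lost in 9 of the 11 fits that left out 1 array, with adjusted p of 0.0575 to 0.11. In those 9 fits the difference itself was between 1.2 and 1.37, and over all 15 alternative fits it ran from 0.99 to 1.53. Among NCFM arrays, 18 h was above 10 h by 0.83 ± 0.20 (adjusted p = 0.0477) and above 4 h by 1.22 ± 0.20 (adjusted p = 0.00139). The first of these calls was lost without any 1 of the NCFM 10 h arrays or without NCFM 18 h replicate 2 (adjusted p 0.0919 to 0.179). Within array numbers the 18 h difference between NCFM and control was 1.88 for number 1 and 1.00 for number 2. For the dimmer probe set the effect at 18 h minus that at 4 h was 0.33 ± 0.13 (adjusted p = 0.263 over all probe sets).

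Spi1, the gene of PU.1, was lower on NCFM arrays in all 7 same-number pairs but was not called at any time in the main comparison. NCFM arrays read 2996, 3735 and 3548 at 4 h, 3013, 4212 and 4453 at 10 h and 2675, 3449 and 4273 at 18 h. Control arrays read 4494, 4250 and 4420 at 4 h, 4806 and 4271 at 10 h and 4062 and 3936 at 18 h. The groups were apart at 4 h and overlapped later, and the NCFM array numbered 1 was the lowest at each time. The changes were -0.36 ± 0.17, -0.24 ± 0.19 and -0.23 ± 0.19 (adjusted p 0.164, 0.379 and 0.413 from limma). Spi1 passed at 4 h when only the 4 h groups were fitted (adjusted p = 0.0467) and at 10 h under spike-in centring (-0.49, adjusted p = 0.0462). Within number 1 they were -0.59, -0.67 and -0.60, and within the other numbers -0.32 to -0.02.

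Of 17 genes known as targets of PU.1 in myeloid cells, 1 was higher and 2 lower at 4 h, 1 higher and 3 lower at 10 h, and 1 higher and 5 lower at 18 h, against 7.4% higher and 16.3% lower of all genes at 18 h. With the block, which called 26.8%, 31.1% and 30.5% of all genes in either direction, the lower counts were 3, 5 and 6. Their median change was -0.11, -0.18 and -0.30. Fcgr1, the high-affinity receptor for IgG, was the 1 that rose, by 1.06 ± 0.23, 1.57 ± 0.26 and 1.40 ± 0.26 (adjusted p 0.00717, 0.000979 and 0.00206 from limma). Csf2ra, the alpha chain of the GM-CSF receptor, fell, with changes of -0.53 ± 0.14 at 10 h and -0.90 ± 0.14 at 18 h on the log2 scale (adjusted p 0.0128 and 0.000548), and the 10 h call was lost without either control 10 h array (adjusted p 0.0823 and 0.054). Btk, a kinase of B cell receptor signalling, fell by 0.60 ± 0.13 at 18 h (adjusted p = 0.0047), which ended when control 18 h replicate 1 was left out (adjusted p = 0.0552) or under quantile normalization (adjusted p = 0.0621).

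Zeb2, a zinc finger repressor, was higher on NCFM arrays in all 7 same-number pairs and was not called against control without the block. NCFM arrays read 1143, 1297 and 1774 at 4 h, 711, 987 and 1455 at 10 h and 576, 676 and 656 at 18 h. Control arrays read 658, 1064 and 1140 at 4 h, 623 and 772 at 10 h and 512 and 414 at 18 h. The groups touched without overlap at 4 h, overlapped at 10 h and were apart at 18 h, and both came down with time. The changes with NCFM were 0.57 ± 0.26, 0.54 ± 0.30 and 0.46 ± 0.30 (adjusted p 0.163, 0.209 and 0.293 from limma), and same-number pairs gave 0.17 to 0.80. At 4 h it passed with the array number as a block (adjusted p = 0.0315, where 26.8% of all genes were called) and under spike-in centring (0.77, adjusted p = 0.0494). Between times, NCFM 18 h was below NCFM 4 h by -1.12 ± 0.26 (adjusted p = 0.0122), a call that ended without NCFM 4 h replicate 3 (adjusted p = 0.0507). Control 18 h against 4 h gave -1.01 ± 0.30 (adjusted p = 1). NCFM 18 h against 10 h gave -0.67 ± 0.26 (adjusted p = 0.252, and 0.0436 with the block, which called 7.23% of all genes). The other Zeb2 probe sets disagreed in sign, with -0.29, -0.56 and 0.23 for one of them and 0.21, 0.48 and -0.91 for another, and without the block no Zeb2 probe set was called at any time.

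BMP signals are known to raise transcription of the Id genes through Smad factors. Of 22 genes of the BMP and TGF beta pathways, 1 was higher and 3 lower at 4 h, 1 higher and 5 lower at 10 h, and 2 higher and 4 lower at 18 h. The shares of all genes called were 18.3%, 24.7% and 23.7%. With the block the counts were 2 and 3, 3 and 5, and 2 and 7, beside 26.8%, 31.1% and 30.5% of all genes. Their median change was 0.04, 0.04 and -0.01. Tgfbr1, a TGF beta receptor kinase, fell, with changes of -1.66 ± 0.17, -1.39 ± 0.20 and -1.34 ± 0.20 on the log2 scale (adjusted p 6.2e-05, 0.000344 and 0.000458 from limma). Tgfbr2, its partner receptor, fell, with changes of -0.89 ± 0.21, -1.33 ± 0.23 and -1.11 ± 0.23 (adjusted p 0.0105, 0.00141 and 0.00435), and leaving out control 18 h replicate 2 ended the last call (adjusted p = 0.0648). Ski, a repressor of Smad activity, fell, with changes of -0.56 ± 0.07, -0.80 ± 0.08 and -0.49 ± 0.08 (adjusted p 0.000239, 3.39e-05 and 0.000905). Smad7, an inhibitory Smad, rose by 0.54 ± 0.09 at 18 h (adjusted p = 0.000962), and Acvrl1, a receptor for BMP ligands, rose by 1.21 ± 0.28 at 18 h (adjusted p = 0.00871).

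Of 31 other transcription factors of dendritic and myeloid lineages, 29 were measured. At 4 h 5 were higher and 2 lower, at 10 h 4 higher and 5 lower, and at 18 h 3 higher and 5 lower, beside 18.3%, 24.7% and 23.7% of all genes called. With the block they were 6 and 5, 8 and 7, and 3 and 7, beside 26.8%, 31.1% and 30.5%. Cebpa, a factor of the granulocyte and monocyte branch, fell, with changes of -1.83 ± 0.35 at 4 h and -1.76 ± 0.39 at 10 h on the log2 scale (adjusted p 0.00325 and 0.00586 from limma). Klf4, a factor of monocytes, fell by 1.99 ± 0.29 at 4 h (adjusted p = 0.000543), while its 18 h change was -0.28 ± 0.32 (adjusted p = 0.57). Gfi1, a repressor in granulocyte and dendritic cell development, rose by 0.80 ± 0.13 at 4 h and 1.26 ± 0.15 at 10 h (adjusted p 0.00129 and 0.0001). At 18 h Spib, a relative of PU.1, fell by 1.08 ± 0.20 (adjusted p = 0.0022) and Cbfb, the partner that Runx proteins need to bind DNA firmly, fell by 1.22 ± 0.20 (adjusted p = 0.00104). All of these calls held without any 1 array, which was so of 3 of 7 calls at 4 h, 2 of 9 at 10 h and 2 of 8 at 18 h in the list.

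Genes that mark the dendritic cell types these factors govern were read next. Of 13 genes of type 1 conventional cells 11 were measured, and 0 were higher and 1 lower at 4 h, 1 higher and 3 lower at 10 h, and 0 higher and 3 lower at 18 h. The shares of all genes called were 18.3%, 24.7% and 23.7%. With the block the counts were 0 and 1, 1 and 4, and 0 and 3, beside 26.8%, 31.1% and 30.5% of all genes. Naaa, a lysosomal amidase enriched in those cells, fell, with changes of -1.63 ± 0.26 at 10 h and -1.85 ± 0.26 at 18 h on the log2 scale (adjusted p 0.00079 and 0.000354 from limma). In the same list Xcr1, Cadm1 and Gcsam had mean intensities of 87 to 145 over the 6 groups, below the array medians of 162 to 167. Wdfy4, Naaa and Cd24a were brighter than those medians in every group. Whether type 1 cells were present or lost was not tested. Of 10 genes of type 2 and monocyte-derived cells 9 were measured, and 2, 3 and 4 were lower at the 3 times with 0 higher at any, against 13.1%, 16.5% and 16.3% lower of all genes. Their median change was -0.40, -0.67 and -1.25, and with the block 3, 3 and 6 were lower, beside 26.8%, 31.1% and 30.5% of all genes called in either direction. Ccr2, a chemokine receptor of monocytes, fell, with changes of -1.41 ± 0.32, -3.03 ± 0.36 and -3.75 ± 0.36 (adjusted p 0.00922, 0.000103 and 2.63e-05). Mrc1, the mannose receptor, fell, with changes of -2.62 ± 0.18 at 10 h and -3.58 ± 0.18 at 18 h (adjusted p 3.99e-06 and 7.13e-07).

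Of 12 genes of plasmacytoid dendritic cells, 1 was higher and 0 lower at 4 h, 1 higher and 1 lower at 10 h, and 1 higher and 2 lower at 18 h. Of all genes 18.3%, 24.7% and 23.7% were called at these times. With the block the counts were 2 and 1, 2 and 1, and 1 and 2, beside 26.8%, 31.1% and 30.5% of all genes. Bst2, a marker of those cells that interferon also raises in other cells, rose by 2.19 ± 0.28 at 10 h and 2.38 ± 0.28 at 18 h (adjusted p 0.00017 and 0.000108 from limma). Spib, also in this list, went the other way and was called lower at 18 h. Its mean intensity was 300 in NCFM cultures against 636 in control cultures at that time. The 18 h calls of Bst2 and Spib held in every fit without 1 array. Siglech, a defining marker, had mean intensities of 140, 143 and 139 in NCFM cultures at 4 h, 10 h and 18 h, against 127, 128 and 128 in control cultures, below the array medians of 162 to 167. Whether plasmacytoid cells had a part in the Tcf4 rise was not tested beyond these values.

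The genes whose log2 intensity followed each regulator most closely over the 16 arrays were sought among the 9095 genes brighter than the median gene, and are given as a description. Arrays share their treatment, time and number, so these correlations carry all 3. Batf was nearest to Psme1 (r = 0.98), a proteasome activator subunit, and to Hspa1a (0.97), a heat shock protein. Id2 was nearest to Gbp7 (0.96), an interferon-inducible GTPase, and Il1rn (0.95), the interleukin 1 receptor antagonist, and Tcf4 to Frmd4a (0.96) and Creb5 (0.95). Runx3 was nearest to Atf4 (0.93), a factor of the integrated stress response, and to Trib3 (0.93), one of its targets. Id3 was nearest to Chd8 (0.92) and Ang (0.86), Zeb2 to Mgat4a (0.87) and Taf7 (0.87), and Spi1 to Sox4 (0.86) and Polrmt (0.84). Id1 was nearest to Mlec (0.93) and Hrob (0.91) and Batf3 to Eif1ax (0.95) and Pop5 (0.93), and both of these regulators differed most between array numbers. Between regulators, r ran from 0.76 (Id2 with Batf) to -0.67 (Id3 with Batf).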

How the data were processed

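Values were the authors' deposited table of processed intensity values, linear and never negative, for 45101 probe sets on 16 single-channel arrays. How they were background corrected and normalized was not given in the sources used here; array medians lay between 162 and 167. Precision is limited by how few arrays a group has. Probe sets were named through the platform annotation: 34945 named 1 gene, 932 several and 9160 none. Groups came from the labels. The brightest probe set stood for each of 18193 genes. limma 3.58.1 in R 4.3.3 was fitted to log2 intensity over the 6 groups and tried on simulated data. That simulation drew independent noise for each array and held no array number effect, so it does not test the fit for such an effect. Calls used an adjusted p under 0.05. Alternatives changed the scaling, offset, probe sets, variance model, samples and block.

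Arrays with the same number deviated together: 36 same-number pairs correlated at 0.192 to 0.746 (median 0.42) and 70 different-number pairs at -0.746 to 0.726. Group means were removed first, so deviations cancel within a group and the different-number values partly follow from the same-number ones. The ranges also overlapped, so the comparison alone does not settle the pairing. The label numbers, given for each group, were taken to pair the arrays in the same-number differences and in the block. The main fit held no pairing. The blocked value stands beside a result where it changed the call.

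The members and the gene lists were chosen with earlier results of these data known. Named were all 9 members, up to 3 called genes a direction of each list, Tcf3, Tcf12, Irf4, Irf8 and Junb, and the 2 genes nearest each member.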

Additional observations from a re-analysis of the deposited data

Results flagged for a closer look

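Results named here are those whose effect of NCFM differed between times by a test of the difference itself in limma. The NCFM effect on Batf was larger at 10 h than at 4 h by 1.39 ± 0.21 on the log2 scale (adjusted p = 0.0189) and larger at 18 h than at 4 h by 1.17 ± 0.21 (adjusted p = 0.0111). The NCFM against control change of Id3 was -0.11 at 18 h, against -1.54 at 4 h, a difference of 1.43 ± 0.28 (adjusted p = 0.0164), with control arrays at 182 and 280 at 18 h, against 575, 823 and 738 at 4 h. The NCFM effect on Runx3 was larger at 18 h than at 4 h by 1.29 ± 0.30 (adjusted p = 0.0375), while its dimmer probe set gave 0.33 ± 0.13 (adjusted p = 0.263 over all probe sets). Each of these calls ended in some alternative fit, as given above, and that of Runx3 in 9 of 11 fits without 1 array. No group held more than 3 arrays, so single arrays were not tested for standing apart.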

How the results depend on the processing

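Over the NCFM against control comparisons at 3 times, 491 of 522 values of single regulators kept their side of the threshold and their direction or stayed within their standard error, 15 lost a call, 7 gained one, 0 called values changed sign and 9 uncalled ones moved across 0. At 4 h, where 4 of the 9 were called, 2 were called with arrays 1 and 2 only and the block, a fit chosen after seeing the data, and 2 to 4 when 1 array was left out. For the effect at 10 h minus 4 h (1 called) the block gave 2 and leaving out 1 array 0 to 1. For 18 h minus 10 h (0 called) the block gave 1, and for 18 h minus 4 h (3 called) spike-in centring gave 1 and leaving out 1 array 1 to 3. Among NCFM arrays, 10 h against 4 h (1 called) gave 2 with the block and 2 with spike-in centring, and 18 h against 10 h (1 called) gave 3 with the block, 0 with median centring and 0 to 1 when 1 array was left out. Control 18 h against 10 h and control 18 h against 4 h (0 called) gave 1 each with the block, Id3 in both. The block, fitted with the array number, changed no other call of the 9 regulators than those given beside their values. Averaging the Tcf4 probe sets gave 0.56 at 18 h (adjusted p = 0.00326 from limma), a call gained. Averaging those of Id2 gave 0.40 at 4 h (adjusted p = 0.0774), a call lost. Fitting the groups compared alone gave Runx3 an adjusted p of 0.0858 at 18 h and Spi1 0.0467 at 4 h. Arrays 2 and 3 only, chosen after seeing the data, gave Id3 -0.32 at 18 h (adjusted p = 0.0435). Spike-in centring moved the median of all genes to 0.18 at 4 h and -0.24 at 10 h, with 18.2% and 90.5% of calls lower, and quantile normalization gave 58.1%, 50.1% and 51.4% lower at the 3 times. All-gene counts called with the block were 4880, 5666 and 5557 at the 3 times, against 3335, 4488 and 4320 without it. The cause of these shifts was not tested.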
